A study of Drosophila melanogaster with 2 samples.

Results

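6 genes of protein synthesis were followed through the binding map of CkIIalpha-i1: eIF6, eIF1, eIF4EHP, larp, IleRS and GluProRS, out of 13945 protein-coding genes on the 6 main chromosome arms. The genes were chosen from the peak lists themselves, by a peak or a strong candidate near a transcription start and by their role in translation, so their signals and ranks are given as a description and were not tested. CkIIalpha-i1 takes its name from an interaction with casein kinase II, through that enzyme's alpha subunit. It was mapped by chromatin immunoprecipitation and sequencing in whole Drosophila melanogaster embryos, aged 0 to 18 hours, of the strain CkIIalpha-i1-GFP. That strain carries a transgenic fusion of CkIIalpha-i1 to eGFP, and an antibody to GFP pulled down the fusion. There was 1 group with 2 biological replicates and no second genotype or treatment to compare with. The map therefore describes a tagged protein in a mixture of all embryonic cell types and stages. What drives the fusion is not given in the sources used here. A strong site in few cells and a weaker site in many cells cannot be told apart in such material.

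Protein synthesis in eukaryotes starts when initiation factors bring the small ribosomal subunit to the capped end of an mRNA and scan for the start codon. eIF1 guards the choice of that codon, and eIF6 keeps the large subunit from joining too early and takes part in its maturation. Cap control acts through proteins that hold the cap themselves: eIF4EHP, a relative of the cap-binding factor eIF4E, represses chosen maternal mRNAs in the Drosophila embryo, and larp encodes the La-related protein, whose mammalian relative binds mRNAs of ribosomal proteins under the control of the TOR kinase. Aminoacyl-tRNA synthetases charge tRNAs with their amino acids. IleRS does so for isoleucine, and GluProRS is a fused enzyme for glutamate and proline.

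The deposited data were 4 peak lists, each in a ranked form and in a thresholded form. The ranked lists held 139481 candidates in the conservative list, which compares the replicates, 147135 in the pooled list, 111177 in replicate 1 and 108922 in replicate 2. The thresholded lists kept 663, 944, 427 and 569 peaks. All kept peaks had a global irreproducible discovery rate (IDR) of 0.01 or less, a −log10 value of at least 2. The IDR is low where 2 inputs both rank a peak high and do so alike. In the conservative list the 2 inputs were the replicates at all 6 genes. The pooled and replicate lists had other input values there, so IDR values of different lists are not like for like. The signal of a peak is the authors' peak-caller score, on a scale that is not stated, and read depth is unknown. The series-wide signal is the same number in the conservative and the pooled list for all 6 genes, and it came to between 1.01 and 1.06 times the sum of the 2 replicates' signals at these genes (median 0.999 over the thresholded conservative peaks, quartiles 0.975 and 1.03). It is therefore not a further measurement beside the replicates.

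The stretches below show the DNA around the strongest summit of 5 of the genes, because several of these summits lie between 2 facing starts and the sequence shows what short elements sit there. Each has 201 bases centred on the summit of the conservative list, written 5′ to 3′ on the strand of the named gene, from the RefSeq Release 6 reference (dm6 coordinates). The regions are chr3L:3222929-3223129 on the plus strand for eIF1, chr3R:24109163-24109363 on the minus strand for eIF4EHP, chr3R:28326504-28326704 on the minus strand for larp, chr3L:22288454-22288654 on the plus strand for IleRS and chr3R:23958454-23958654 on the minus strand for GluProRS. Capitals mark exact matches, on either strand, to short words: ACAGTGG at larp and GluProRS, TATCGATA at eIF1 and IleRS, TATAAA at eIF4EHP, and GAGAG as well as CAGCTG at IleRS.
eIF1: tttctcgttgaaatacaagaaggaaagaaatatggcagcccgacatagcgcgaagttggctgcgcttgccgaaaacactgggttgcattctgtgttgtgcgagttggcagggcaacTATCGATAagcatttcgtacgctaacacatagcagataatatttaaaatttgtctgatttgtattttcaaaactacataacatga
eIF4EHP: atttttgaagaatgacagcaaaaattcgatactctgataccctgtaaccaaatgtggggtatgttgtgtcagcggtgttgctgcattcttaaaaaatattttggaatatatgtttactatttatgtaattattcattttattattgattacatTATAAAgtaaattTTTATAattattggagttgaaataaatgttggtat
larp: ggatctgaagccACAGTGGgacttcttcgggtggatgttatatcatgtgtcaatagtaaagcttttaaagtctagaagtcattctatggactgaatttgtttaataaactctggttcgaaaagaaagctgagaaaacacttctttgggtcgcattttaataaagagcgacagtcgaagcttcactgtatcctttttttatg
IleRS: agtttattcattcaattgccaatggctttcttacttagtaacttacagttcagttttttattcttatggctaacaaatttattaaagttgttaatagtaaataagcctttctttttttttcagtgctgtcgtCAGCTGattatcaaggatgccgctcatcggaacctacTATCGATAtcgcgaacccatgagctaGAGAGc
GluProRS: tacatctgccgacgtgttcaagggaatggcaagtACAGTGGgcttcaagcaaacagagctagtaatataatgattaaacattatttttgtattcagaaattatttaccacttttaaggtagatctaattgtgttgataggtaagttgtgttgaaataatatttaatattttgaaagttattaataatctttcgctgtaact

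All 6 genes had candidates within 1 kb of a start in each of the 4 ranked lists. A thresholded peak there was called for 5 of the 6 in the conservative list (background 4.51%, or 547 of the 12138 protein-coding genes with a candidate, and 3.92% of all 13945). It was called for 5 in the pooled list (5.64%), for 4 in replicate 1 (3.04%) and for 2 in replicate 2 (3.87%). These counts follow from how the genes were chosen, and nothing is read from them. When every ranked candidate with a global IDR of 0.01 or less was counted, listed or not, the numbers were 6 (background 4.58%), 6 (5.77%), 5 (3.13%) and 4 (3.96%). In the conservative list 5 of the genes were also called within 500 bp of a start (background 4.2% of 10521 genes with a candidate that close). Of them 3, eIF6, IleRS and GluProRS, were called within 200 bp (4.69% of 6465 genes with a candidate that close). eIF1 and eIF4EHP had no conservative candidate within 200 bp. eIF6 and IleRS were the 2 genes with a thresholded peak in all 4 lists. Every one of the 6 strongest summits lay upstream of its own gene's nearest start, by 90 to 340 bp. The share of upstream summits over other promoter peaks was not counted, so nothing is read from this.

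**Figure D1:**
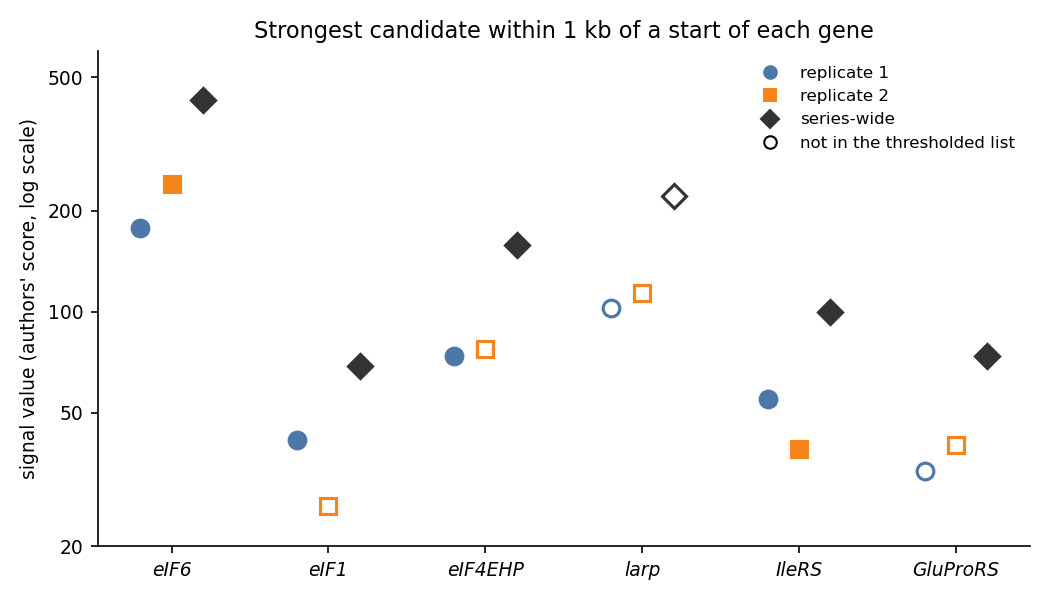
Signal value (the authors' score, log scale) of the strongest candidate within 1 kb of a start of each gene, in replicate 1 (circles), replicate 2 (squares) and series-wide (diamonds); open symbols are candidates absent from the thresholded list of that replicate or, for diamonds, from the conservative list. eIF6 had the highest value in each of the 3 sets, and all 3 larp symbols are open.

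Ribosome maturation was represented by eIF6 (FBgn0034915, 2R 23849246 to 23850301, minus strand), which carried the strongest site of the 6. Its signal was 177 in replicate 1 and 241 in replicate 2, and 426 series-wide. It ranked 11 of 427 and 9 of 569 in the replicates' thresholded lists and 9 of 663 in the conservative list. The interval covered 179 bp (2R 23850315 to 23850493), 134 bp in replicate 1 and 165 bp in replicate 2, where most peaks have one fixed width per list (284 bp for 88.4% of the thresholded conservative peaks). Its summit lay 90, 90 and 110 bp upstream of the start in the conservative list, replicate 1 and replicate 2. The −log10 global IDR was 4.61 in the conservative list and 5 in each of the other 3 lists. The next candidate of the gene lay 730 bp inside it with a signal of 52.1, 8.19 times below the main one. An antisense RNA gene, asRNA:CR45928, starts 29 bp from eIF6 in the facing direction, and the summit fell 61 bp inside it, within an exon. It also lay in an intron of ytr.

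Start-codon selection was represented by eIF1 (FBgn0035423, 3L 3223341 to 3224650, plus strand), which had the weakest series-wide signal of the 6. The signal was 41.5 in replicate 1 and 26.4 in replicate 2, and 68.9 series-wide. The peak was in the thresholded list of replicate 1 (rank 376 of 427) and in the conservative list (rank 551 of 663), but not in that of replicate 2. There its −log10 global IDR was 0.793, against 2.22 in replicate 1 and 2.09 in the conservative list, each from a different pair of inputs. At 2.09 the conservative call was the one nearest to the threshold of 2 among the 6 genes. The interval was 3L 3222887 to 3223170, and the summit lay 312 bp upstream of eIF1 but only 69 bp upstream of the facing RpL28, a protein of the large ribosomal subunit. The starts of the 2 genes are 381 bp apart.

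Cap control had 2 genes. At eIF4EHP (FBgn0053100, 3R 24063077 to 24108960, minus strand) the signal was 73.6 in replicate 1 and 77.3 in replicate 2, and 158 series-wide (rank 108 of 663). The interval was 3R 24109121 to 24109404. Its summit lay 303 bp upstream of eIF4EHP and 73 bp upstream of the facing CG18428, whose start is 376 bp away. The replicate 2 candidate was not in that replicate's thresholded list although its signal was the higher one and its −log10 global IDR was 3.99, above the threshold. eIF4EHP also held a thresholded peak deep inside its long gene body, at 3R 24099039 to 24099322. Its summit was 9779 bp from the start, with a signal of 90.0 in the conservative list (rank 350) and 39.5 in replicate 2 (rank 508).

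larp (FBgn0261618, 3R 28318162 to 28336440, minus strand) had the second highest signal of the 6. It had no thresholded peak with its summit within 1 kb of any of its 6 annotated starts. The signal of its strongest candidate was 102 in replicate 1 and 113 in replicate 2, and 222 series-wide, which put it at rank 57 of the 139481 conservative candidates and at ranks 59 and 68 in the replicates. Its −log10 global IDR was 3.62, 4.03, 3.88 and 5 in the conservative, pooled, replicate 1 and replicate 2 lists. All 4 values passed the threshold, yet the candidate was in none of the 4 thresholded lists. It was not alone: on the main arms 28 of 681 conservative candidates past the threshold (4.11%) were unlisted, and larp ranked 3 of these 28 by signal. The share was 4.35% in the pooled list, 4.29% in replicate 1 and 6.35% in replicate 2. The deposited records of the thresholded lists name 1 input file more than those of the ranked lists. Whether that step removed the larp candidate was not tested.

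The larp candidate lay 340 bp upstream of an internal start at 3R 28326264, in an intron of 5 of the gene's 7 transcripts, and no other gene started within 1 kb of it. Its interval was 71 bp in the conservative list (3R 28326587 to 28326657) and 260 and 270 bp in the replicates, with summits within 15 bp of each other in the 4 lists. A second candidate lay 74 bp upstream of the start at 28335541, with a signal of 47.8 and a −log10 global IDR of 1.38, below the threshold. One thresholded conservative peak did fall in the gene, at 3R 28329206 to 28329489, with a signal of 61.8 (rank 624). Its summit was at −1065 bp from the nearest start (negative is upstream), just outside the 1 kb limit. The pooled list held a further one 5458 bp from a start with a signal of 59.2 (rank 820). Near the limit itself, the larp candidates at 877 and −997 bp had signals of 21.8 and 36.4, and the nearest ones outside, at 1030 bp for larp and 1041 bp for IleRS, had 28.0 and 21.3.

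tRNA charging was represented by IleRS and GluProRS. At IleRS (FBgn0027086, 3L 22288665 to 22292810, plus strand) the signal was 54.8 in replicate 1 and 39.0 in replicate 2, and 99.5 series-wide. The ranks were 231 of 427, 518 of 569 and 284 of 663 in the replicate 1, replicate 2 and conservative lists. The interval was 3L 22288412 to 22288695, and its summit lay 111 bp upstream of IleRS and 359 bp upstream of the facing Hem, a subunit of the actin-regulating SCAR complex. IleRS was one of 2 genes, with larp, whose own start was the nearest to the summit.

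GluProRS (FBgn0005674, 3R 23952136 to 23958391, minus strand) had signals of 33.5 in replicate 1 and 40.0 in replicate 2, and 74.0 series-wide (rank 489 of 663). It was in the conservative and the pooled list and in neither replicate's own thresholded list. The −log10 global IDR was 1.03 and 1.71 in the replicates, against 2.27 and 2.55 in the conservative and pooled lists. These values rest on a different pair of inputs in each list. The summit lay 163 bp upstream of GluProRS and 97 bp upstream of the facing AP-1sigma, a subunit of a clathrin adaptor, with the starts 260 bp apart. Its position moved by 3 bp over the 4 lists. The gene's internal start, at 23955499, had no candidate stronger than 13.4.

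Both replicates put eIF6, larp and eIF4EHP first, in that order. The mean of the 2 replicates was 209 ± 44.9 at eIF6 (SD, n = 2, as for the other genes), 108 ± 7.82 at larp and 75.4 ± 2.63 at eIF4EHP. The replicate values of these 3 genes did not overlap with each other or with those of the rest. IleRS followed with 46.9 ± 11.2, GluProRS with 36.8 ± 4.56 and eIF1 with 33.9 ± 10.7. The values of these last 3 overlapped, so their order does not exceed the spread between the replicates. With 2 replicates of 1 group no test was possible at the level of samples.

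The balance between the replicates differed from gene to gene. The log2 ratio of replicate 2 to replicate 1 was 0.44 at eIF6, 0.25 at GluProRS, 0.15 at larp and 0.07 at eIF4EHP, and it was −0.49 at IleRS and −0.66 at eIF1. Over the 663 thresholded conservative peaks the median was 0.18, with quartiles of −0.19 and 0.53. eIF6, GluProRS, larp and eIF4EHP thus fell between the quartiles, while IleRS and eIF1 leaned to replicate 1. Of the 663 peaks, 11.3% had a lower ratio than IleRS and 6.64% had a lower ratio than eIF1.

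**Figure D2:**
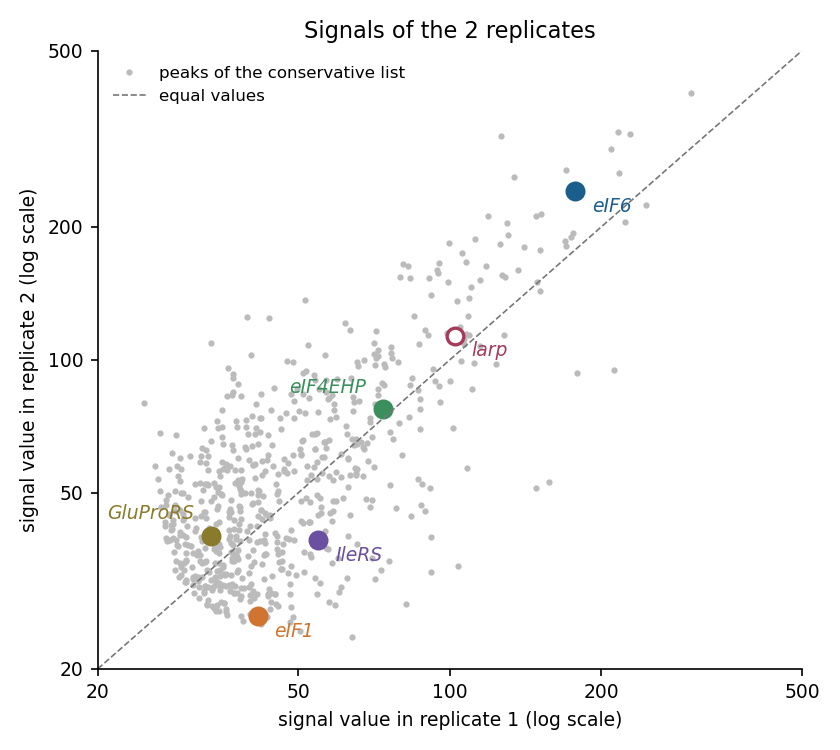
Signal value in replicate 1 (horizontal, log scale) against replicate 2 (vertical, log scale) for the 663 thresholded conservative peaks (grey) and the 6 genes (coloured; larp, open, is not in the thresholded list); the dashed line marks equal values. IleRS and eIF1 lie below the line, and the other 4 genes lie above it.

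Facing genes start close by and run the opposite way. All 6 genes had one within 1 kb of an annotated start, and for 4 it was a protein-coding gene. The share of facing pairs over all genes or peaks was not counted, so nothing is read from these counts. For eIF1, eIF4EHP, IleRS and GluProRS the summit lay between the gene's own start and that of a facing protein-coding gene, with starts 260 to 470 bp apart. The eIF6 summit lay beyond both starts, inside the facing antisense RNA gene. For larp the facing gene was asRNA:CR46104, at another of its starts, and no facing gene started within 1 kb of the larp summit. In 4 cases (eIF6, eIF1, eIF4EHP and GluProRS) the start nearest to the summit was the other gene's. A peak between facing starts cannot be assigned to one of the 2 genes from its position. Counted in any orientation, 159 of the 409 conservative peaks within 1 kb of a protein-coding start (38.9%) had more than 1 protein-coding gene starting within that distance. By that count eIF6 also has a second gene, ytr, which runs in its own direction, so the share is not one of facing pairs. The median distance to the nearest start of any gene was 85 bp for the 6 genes (61 to 340 bp) and 157 bp for the 409 peaks (quartiles 90 and 321 bp).

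**Figure D3:**
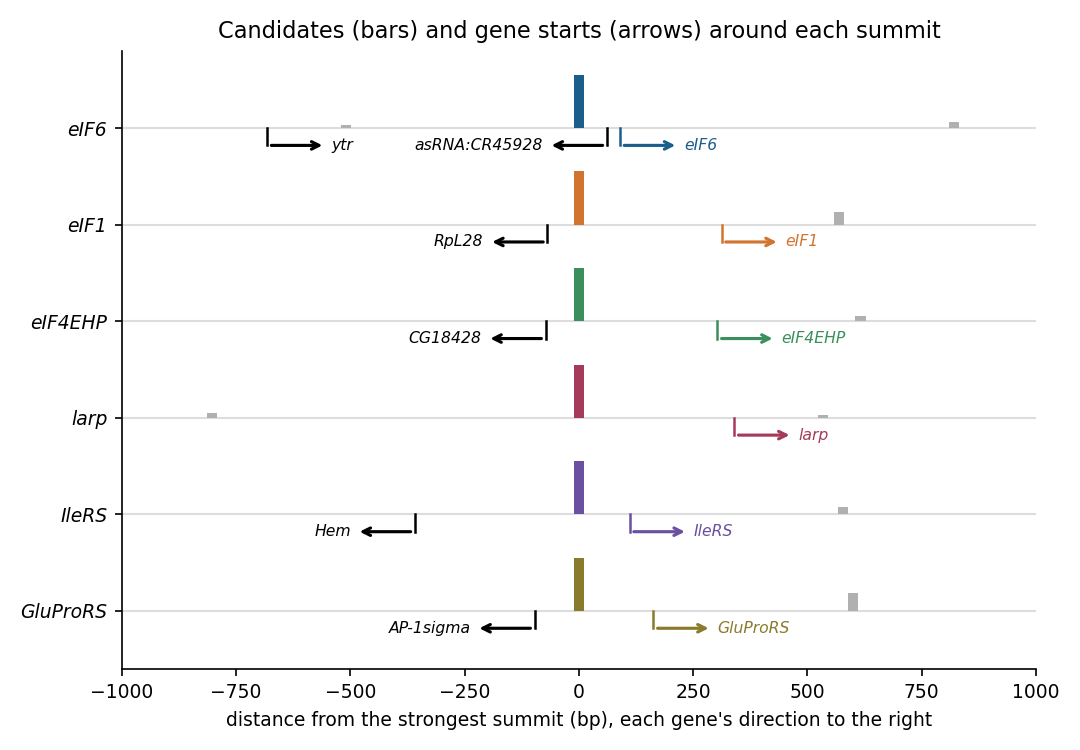
Candidates of the conservative ranked list (bars, height relative to the strongest candidate of the same gene) and gene starts (arrows, pointing in the direction of transcription; snoRNA genes left out) by distance in bp from the strongest summit, with each gene's own direction to the right. The grey bars are the weaker candidates of the same gene. Each strongest summit lies upstream of its gene's nearest start, which for larp is an internal one.

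Only candidates within 1 kb of a start were compared for how far the strongest exceeded the next, a margin that partly follows from choosing genes with a strong candidate. The strongest was 9.05 times the next candidate at eIF4EHP, 8.19 times at eIF6, 7.08 times at IleRS, 4.63 times at larp, 4.34 times at eIF1 and 3.04 times at GluProRS. larp, with 6 starts, had 11 conservative candidates and GluProRS had 7, while the other genes had 2 or 3. The peaks farther from a start, of 90.0 in eIF4EHP and 61.8 in larp, were stronger than the next candidates counted here. The summits differed between the 4 lists by at most 44 bp (eIF4EHP).

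The sequences around the summits did not share one element. The word ACAGTGG, found in an earlier search of these same lists, was in the stretches printed above for larp, 88 bp to the left of the summit, and for GluProRS, 66 bp to the left. It occurred within 100 bp of the summit in 15.4% of the 409 thresholded promoter peaks, in 3.04% of the 29739 other promoter candidates and in 2.75% of windows of the same length at all 19253 promoters. Because the word was found in these lists, the difference between these shares is no independent support for it. The DNA replication-related element TATCGATA, the target of the factor DREF, was found at eIF6, eIF1 (16 bp to the right of the summit) and IleRS (69 bp to the right, 42 bp before the start). Its shares in the 3 backgrounds were 4.16%, 0.864% and 6.21%.

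The other words were at single genes or in common use. TATAAA was at eIF6 and on both strands at eIF4EHP, 53 and 66 bp to the right of the summit, against 38.4%, 13.6% and 33.6% in the backgrounds. GAGAG and CAGCTG were at IleRS alone, and their backgrounds were 26.2%, 23.5% and 25.3% for the former and 11.2%, 12.2% and 12.01% for the latter. CAGTGTA was at none of the 6 genes (6.85%, 1.63% and 1.86%), and neither was the M1BP element, sought as GGTCACACT (1.71%, 0.464% and 2.48%) and in a longer form that contains it. ACAGTGG and CAGTGTA share 5 letters and were both found in an earlier search of these lists. All words were searched on both strands. A match is a run of letters that does not show a bound factor. GC content within 100 bp ranged from 25.9% at eIF4EHP and 29.9% at GluProRS to 40.3% at eIF1 and 43.8% at eIF6, with 35.3% at IleRS and 37.3% at larp. The median of the 409 promoter peaks was 35.8% (quartiles 31.8% and 40.8%).

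Most genes of the same pathways had no thresholded peak, as was true of protein-coding genes in general. Of 140 genes in 6 lists of translation, 121 had a conservative candidate and 10 of these (8.26%) had a thresholded conservative peak, against 4.51% of all protein-coding genes. 5 of the 10 were the genes described here. Of the other genes with a candidate 5 (4.35%) had one, close to the share over all protein-coding genes. Among 20 cytoplasmic synthetase-list genes with a candidate, IleRS and GluProRS had a thresholded peak and the other 18 had none, in any of the 4 lists. With background shares of 3.04% to 5.64% in these lists, nothing is read from those 18. The median signal of the strongest candidate was 33.8 in that list, 32.6 for the initiation factors, 36.1 for cap control and the TOR branch, 32.4 for ribosome maturation, 35.4 for elongation and release and 28.0 for the mitochondrial synthetases. It was 28.9 over all protein-coding genes (quartiles 22.2 and 37.2). Each of the 6 genes thus lay well above the median of its own list, as the way they were chosen implies.

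The 5 other genes with a thresholded conservative peak were eIF2Bbeta, LeuRS-m, brat, eEF1gamma and pum. eIF2Bbeta, a subunit of the exchange factor that reloads eIF2 with GTP, had the highest signal of the whole list (701), but its summit lay 675 bp upstream of it and 44 bp upstream of Ugalt. LeuRS-m, the mitochondrial leucine enzyme, had 141 at 837 bp upstream, and Dhc64C started nearer to that summit, at 671 bp. The translational repressors brat and pum had 109 and 84.0, at −755 and −625 bp. eEF1gamma, an elongation factor subunit, had 108 at 18 bp upstream, with a thresholded peak in replicate 1 (82.0) and only a candidate in replicate 2 (28.1).

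Thor, the 4E-binding protein that blocks eIF4E under low TOR activity, had a thresholded peak in the pooled list (45.8) and in replicate 1 (41.8). ValRS-m, eEF1alpha1 and mxt had one in the pooled list alone, CG5033 and nclb in replicate 1 alone and Ns2 in replicate 2 alone. Another gene started nearer to the summit in several of these cases. These were ValRS-m (−811 bp, with CG5653 at 794 bp) and mxt (−964 bp, with CG11927 at 493 bp). They were also nclb (−991 bp, with CG30015 at 14 bp) and Ns2 (−212 bp, with POSH at −64 bp). Lk6, a kinase of eIF4E that was singled out after its value was seen, had an unlisted candidate of 387, the highest value among the genes of the 6 lists without a thresholded peak and above that of larp.

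**Figure D4:**
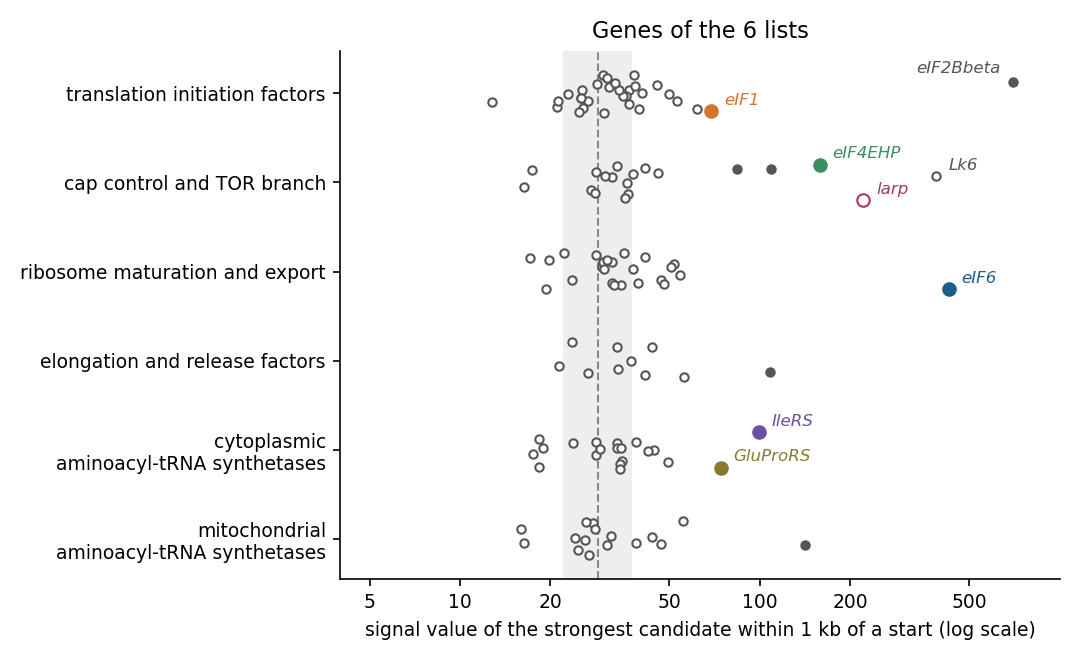
Signal value (log scale) of the strongest conservative candidate within 1 kb of a start for each gene of the 6 lists, 1 point per gene; filled points are genes with a thresholded conservative peak, the coloured points are the 6 genes described here, and the dashed line and grey band mark the median (28.9) and the quartiles (22.2 and 37.2) over all protein-coding genes. larp (222) and Lk6 (387) are the open points of highest signal.

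For each of the 6 genes, the promoter peak most like it was sought among the 409 by the distance between the log2 signals of both replicates, a likeness over 2 samples. eIF6 was nearest to Tcs5, with signals of 170 and 268 in replicates 1 and 2 (distance 0.17). eIF1 was nearest to by (40.5 and 26.8, distance 0.04), and eIF4EHP to osp (69.5 and 73.8, distance 0.11). larp was nearest to CG44286 (98.7 and 115.1, distance 0.06), IleRS to Fbl6 (56.8 and 37.5, distance 0.08) and GluProRS to GCS2beta (33.4 and 40.7, distance 0.03).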

How the data were processed

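Chromatin immunoprecipitation of an eGFP-tagged protein was measured in 2 biological replicates of 1 group of embryos. Per the labels, chromatin was sonicated to 200 to 800 bp, and per the deposited file records the coordinates are on dm6, with alignments and a control among the inputs. Neither aligner nor peak caller is named (not given in the sources used here). The deposited signal value and scaled IDR are scores of the authors, and the deposited −log10 values are of the global IDR.

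From the 8 lists, candidates with a summit within 1 kb of an Ensembl BDGP6.54 start (release 115) were taken on the main arms, and per gene and list the one of highest signal was described. Values are used as deposited, with no filter or pseudocount. Replicate ratios assume that both replicates were scored alike. Words and GC were counted in 201 bp windows of the RefSeq Release 6 reference. Genes named are the 6, the list genes with a thresholded peak and the peak most like each of the 6, besides genes starting near the 6 summits or a named peak. Lk6 falls outside this rule and was named after its value was seen. Of the symbols in the 6 lists, 41 of 41, 21 of 22, 26 of 26, 13 of 14, 23 of 23 and 16 of 18 matched the annotation, in the order initiation, cap control, maturation, elongation, cytoplasmic and mitochondrial synthetases. The genes, lists and words were chosen with earlier results of these data known. A gene of another function that shares the symbol meant for a maturation factor was taken off its list after its value was seen. The assignment of summits to starts was tested on simulated summits placed at known distances. Alternatives were other start distances, the peak interval in place of the summit, IDR thresholds, windows, the nearest candidate and each replicate alone. Depth is unknown, so no interval is given. Python 3.11.15, numpy 2.4.6, pandas 2.3.3 and matplotlib 3.10.9 were used.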

Additional observations from a re-analysis of the deposited data

How the results depend on the processing

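Of the 6 genes, 5 had a thresholded conservative peak with its summit within 1 kb of a start. Counted by peak interval in place of summit, the number was 6, because the larp peak with its summit at −1065 bp reaches inside 1 kb. The share over all genes was not counted by interval. By summit, the number was 3 at 200 bp and 2 to 4 when either replicate's own list was used alone. Counts at other IDR thresholds in this section are of ranked candidates, listed or not, so they are not subsets of the thresholded counts. At a global IDR of 0.001 the conservative count was 3, made up of eIF6, eIF4EHP and the unlisted larp (−log10 values 4.61, 3.24 and 3.62). The pooled count of 5 was 3 at 200 bp and the replicate 1 count of 4 was 2. At an IDR of 0.001 the counts were 3 in the pooled list and 2 in replicate 1, and both include the unlisted larp. The replicate 2 count of 2 became 4 at an IDR of 0.01 with unlisted candidates and 5 at 0.05. Over the 6 lists together, 10 genes had a thresholded conservative peak, against 6 at 500 bp, 4 at 200 bp and 6 to 11 with 1 replicate's list. The shares over protein-coding genes with a candidate that close were 4.2% at 500 bp and 4.69% at 200 bp. Ranked candidates, listed or not, gave 5 genes at an IDR of 0.001 and 19 at 0.05. Shares over all protein-coding genes were not counted at these IDR settings, so nothing is read from those counts. Taking the candidate nearest to a start in place of the strongest gave signals of 15.9 at eIF1, 33.8 at larp and 12.3 at GluProRS. ACAGTGG was found at 0 genes within 50 bp of the summit and at 4 with at most 1 letter changed (51.6% of promoter peaks). No paired analysis was possible because there is 1 group. The unknown depth and the 2 replicates limit how firmly weak sites such as eIF1 and GluProRS can be placed.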
